A study of Danio rerio with 2 samples.

Results

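Translation factors were followed through single-cell RNA-sequencing of zebrafish heads at 3 days post fertilization (dpf). The genes were all features whose symbol starts with *eif* (eukaryotic initiation factor, 64 genes) or *eef* (eukaryotic elongation factor, 17 genes), 81 of the 37423 features counted. The choice used symbols only and no measured value. The data comprised 1 library from *polr3a* sa907/sa907 mutants and 1 library from *polr3a* +/+ fish, each made from the heads of 10 fish. The parents were both heterozygous for sa907, with Tg(*fli1a*:egfp) on one side and Tg(*sox10*:mRFP) on the other, and embryos were screened for GFP and RFP, so both groups carried these transgenes. The sa907 allele is a nonsense allele from chemical mutagenesis, and mutants still receive maternal *polr3a* product, which limits them as a model of complete loss. Heads were cut at the pectoral fin, dissociated and sorted for viable cells, and the pooled heads leave no replicate, so every comparison below is between 2 libraries and carries counting error only.

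Polr3a is the largest subunit of RNA polymerase III, which makes tRNAs, the 5S rRNA and other small RNAs. Initiation factors bring the initiator tRNA and the small ribosomal subunit to the start codon, and elongation factors then deliver aminoacyl-tRNAs and move the ribosome along the mRNA. eIF2 carries the initiator tRNA and must be recharged with GTP by the exchange factor eIF2B. Stress kinases phosphorylate the alpha subunit of eIF2 and turn it into an inhibitor of eIF2B, the step at the centre of the integrated stress response, and inherited defects of eIF2B cause a leukodystrophy in people.

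After the filters of the study, 26454 cells of the mutant library (median 4044.5 UMIs) and 36996 of the wild-type library (median 3401.5 UMIs) were kept, with 280 cell barcodes shared by both. Levels are counts per 1000000 UMIs (CPM), summed over cells, and each ratio is the mutant over the wild-type library with an exact 95% interval. Reads are tags from 3′ ends, so levels of different genes depend on how well each end was captured, and reads of near-identical copies can be lost or misassigned. The *polr3a* mRNA itself stood at 16.3 CPM in the mutant library and 13.8 CPM in the wild-type library (log2 ratio 0.25, 0.16 to 0.33). The study's qRT-PCR at 3 dpf instead found less *polr3a* mRNA in mutants, and this disagreement was not resolved. Since 3′ tags do not read the mutated site, the genotype was not checked here. The study itself genotyped fin clips of the fish before pooling the heads. Its western blot, at a later stage, found less full-length Polr3a protein in mutants. Cell types were gated by at least 3 distinct markers of a list. Of 20 gates, 14 held at least 100 cells in each library and are described, 13 of which exclude each other. Cells falling in several gates (5124 in the mutant and 6676 in the wild-type library) were left out of them.

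Over all cells, initiation and elongation factors differed in opposite directions. The 64 *eif* genes summed to 8831 CPM in the mutant library and 8345 CPM in the wild-type library. The 17 *eef* genes summed to 8504 and 9668 CPM. Thus the initiation factors were higher in the mutant library by 0.08 on the log2 scale (0.08 to 0.09), close to the median of 0.07 over all genes, while the elongation factors were lower, at -0.19 (-0.19 to -0.18). Of the 81 genes, 72 reached 10 CPM averaged over both libraries, the level used throughout to call a gene measured. Among these, 17 (23.6%) had a ratio above 1.2, beside 13.9% of the 11837 genes measured at that level. None of the 72 had a ratio below 0.8, beside 2.99% of all such genes. Their median log2 ratio was 0.05 and that of all genes was 0.07, so the genes as a whole did not sit above the rest. No test was possible with 1 library per condition. The 9 genes below 10 CPM were *eef1a1b*, *eef1a1l2*, *eef1a2*, *eef2a.2*, *eef2kmt*, *eefsec*, *eif2ak2*, *eif4e1b* and *eif3bb*, the last at 0 UMIs in both libraries, which allows up to 0.0230 CPM in the mutant and 0.0188 CPM in the wild-type library, taking 3 UMIs as the limit.

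**Figure D1:**
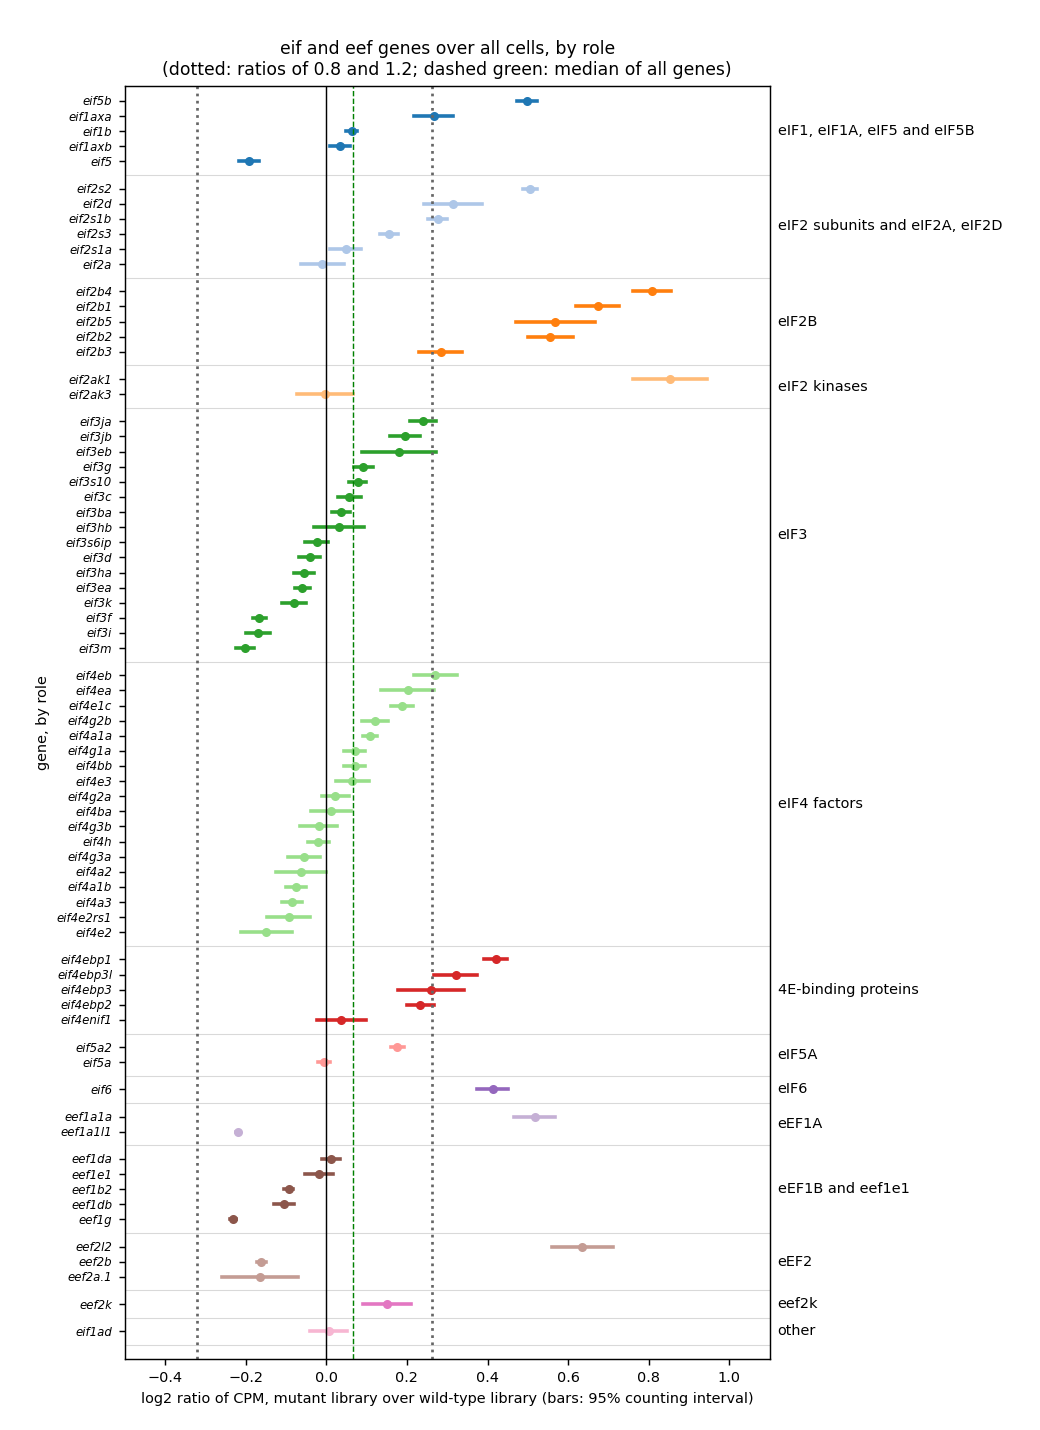
Log2 ratio of CPM (mutant over wild-type library, all cells) of the 72 measured genes, grouped by role. Points are ratios, bars are 95% counting intervals, and the dashed green line is the median of all genes (0.07). All 5 eIF2B genes lie right of the dotted line at a ratio of 1.2, whereas the 16 eIF3 genes lie between the dotted lines at 0.8 and 1.2.

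All 5 subunits of eIF2B, the exchange factor for eIF2, were higher in the mutant library. *eif2b4*, which encodes the delta subunit of the regulatory part, stood at 68.9 CPM in the mutant library and 39.4 CPM in the wild-type library, a log2 ratio of 0.81 (0.76 to 0.85). *eif2b1*, the alpha subunit that senses phosphorylated eIF2, stood at 50.4 and 31.6 CPM (0.67). *eif2b2*, the beta subunit, stood at 44.0 and 30.0 CPM (0.56). The regulatory subunits were thus each at least 1.47-fold higher. *eif2b5*, the catalytic epsilon subunit and the lowest of the complex, stood at 14.6 and 9.86 CPM (0.57). *eif2b3*, the gamma subunit that pairs with epsilon, was the nearest to no difference, at 43.8 and 36.0 CPM (0.28, with an interval of 0.23 to 0.34). The summed eIF2B level was 222 CPM in the mutant and 147 CPM in the wild-type library, a 1.51-fold difference. On a scale with 1 added to the mean per 10000 UMIs, all 5 ratios stayed above 1 but under 1.2.

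The eIF2B difference was uneven over cell types. Skeletal muscle held the widest gap, with a summed level of 444 CPM in the mutant library and 145 CPM in the wild-type library, 3.06-fold higher. Radial glia, the neural stem and support cells of the larval brain, had 360 and 161 CPM, 2.24-fold higher. Cranial mesenchyme had 237 and 136 CPM, and chondrocytes 218 and 126 CPM, 1.75-fold and 1.73-fold higher. By contrast, basal epidermis (95.9 and 94.4 CPM), macrophages and microglia (127 and 125 CPM), bipolar cells of the retina (152 and 141 CPM) and xanthophores (113 and 100.5 CPM) did not differ beyond counting error. In all, the interval of the summed level lay above no difference in 9 of 13 gates and below it in 0. The median ratio of the measured subunits was also above 1.2 in 9, but these were not the same gates. Xanthophores (median log2 ratio 0.27) were only among the latter and photoreceptors (0.24) only among the former.

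Among single subunits, *eif2b4* had the largest ratio in muscle and radial glia. *eif2b4* in skeletal muscle stood at 153 CPM in the mutant library and 28.4 CPM in the wild-type library, 5.40-fold higher, and in radial glia at 118 and 36.7 CPM, 3.22-fold higher. In neurons it stood at 58.1 and 45.3 CPM, and in bipolar cells at 49.8 and 48.5 CPM. In the wild-type library *eif2b4* was thus highest in bipolar cells (48.5 CPM), while in the mutant library muscle led. After each cell was thinned to 1000 UMIs, *eif2b4* was found in 12.4% of 362 muscle cells of the mutant library and 1.93% of 362 in the wild-type library (46.3% and 15.5% unthinned, at median depths of 7180.5 and 5750 UMIs). In basal epidermis *eif2b1* stood at 17.6 and 25.1 CPM and *eif2b3* at 33.2 and 23.5 CPM. Both log2 intervals there covered no difference (-1.11 to 0.07 and -0.01 to 1.01). In chondrocytes the thinned shares of *eif2b4* were 5.08% and 3.63%, a smaller gap, and their exact 95% intervals (3.85 to 6.57% and 2.67 to 4.81%) overlapped.

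**Figure D2:**
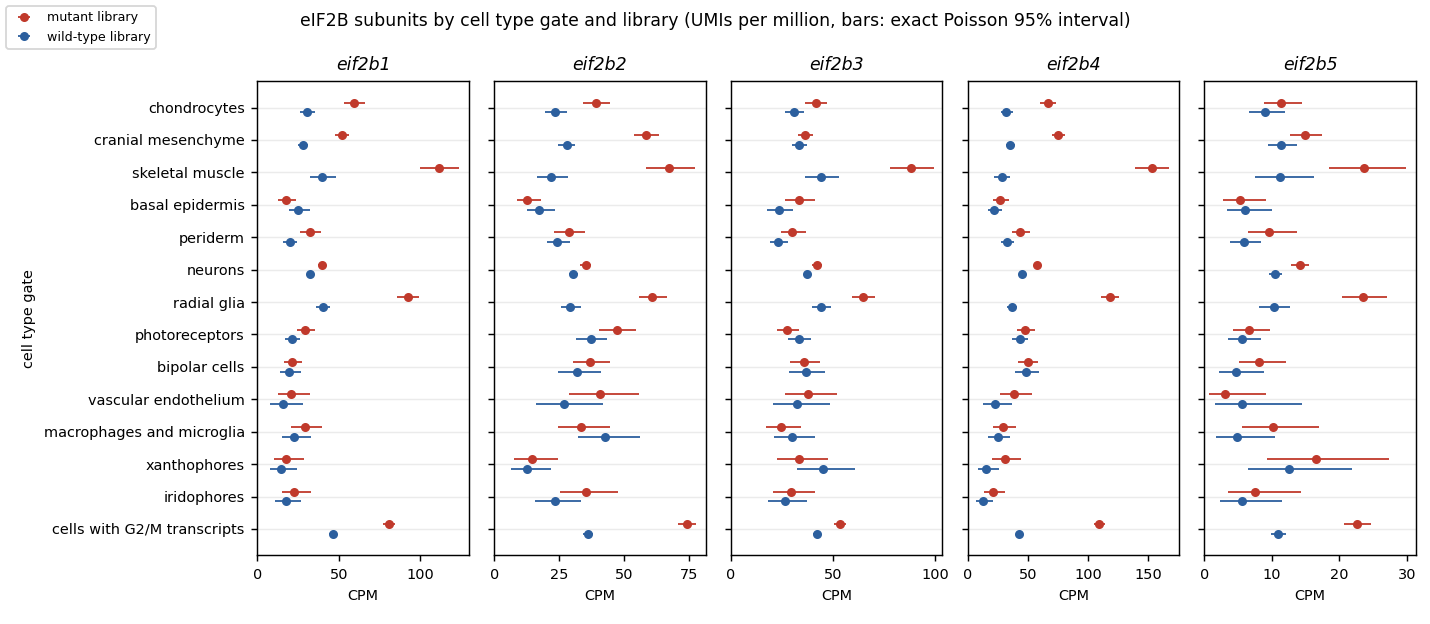
CPM of each eIF2B subunit (x axis, from 0) in 14 cell type gates (y axis) of the mutant (red) and wild-type (blue) library, with exact Poisson 95% intervals. Skeletal muscle, radial glia and cells with G2/M transcripts show the widest gaps, for instance 153 against 28.4 CPM of *eif2b4* in muscle, while bipolar cells show little gap.

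Other transcripts moved with these gates. The 10 muscle markers themselves summed to 25345 CPM in the muscle gate of the mutant library and 45744 CPM in that of the wild-type library, with 0 of 10 higher, so muscle-specific mRNAs took less of the total there. The 7 radial glia markers summed to 434 and 270.5 CPM in the muscle gate, with 6 of 7 higher in the mutant library. The part of these markers in the muscle values was not tested. On the log2 scale the summed eIF2B ratio in muscle was 1.61, beside a median of 0.18 over all genes there, and in radial glia 1.16, beside -0.00. Cells with G2/M transcripts were 17.2% of the radial glia gate in the mutant and 19.6% in the wild-type library. Without them the eIF2B sum in radial glia was 315 and 133 CPM, 2.37-fold higher, and in muscle 447 and 135 CPM, 3.32-fold higher. Within the cells with G2/M transcripts it was 340 and 178 CPM. Leaving these cells out (a choice made after seeing the data) reduced the number of gates with a median eIF2B ratio above 1.2 from 9 to 6, and the endothelial sum from 1.37-fold to 1.06-fold.

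eIF2 itself, the carrier of the initiator tRNA, was higher mainly through its beta subunit. *eif2s2*, encoding eIF2-beta, stood at 408 CPM in the mutant library and 287 CPM in the wild-type library (log2 ratio 0.51, 0.49 to 0.52). The alpha subunit, which carries the regulatory phosphorylation site, is encoded by the duplicates *eif2s1a* and *eif2s1b*. *eif2s1b* stood at 209 and 172 CPM (0.28), while *eif2s1a* stood at 74.4 and 72.0 CPM (0.05). *eif2s3*, encoding the GTP-binding gamma subunit, stood at 245 and 220.1 CPM (0.16). Only *eif2s2* and *eif2s1b* of the 4 subunit genes had ratios above 1.2. The related factor *eif2d*, which can place tRNA on the ribosome without eIF2, stood at 24.2 and 19.5 CPM (0.31), and *eif2a*, another alternative carrier, at 39.2 and 39.5 CPM (-0.01).

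The eIF2 subunits showed their widest gaps in the same cell types as eIF2B. *eif2s2* in muscle stood at 966 CPM in the mutant library and 411 CPM in the wild-type library, and in radial glia at 678 and 318 CPM. In chondrocytes it stood at 461 and 299 CPM, 1.54-fold higher and among the 5 largest ratios of well-measured *eif* and *eef* genes there. In basal epidermis it stood at 234 and 240.3 CPM, and in bipolar cells at 172 and 197 CPM. Muscle and radial glia were also the places where *eif2s3* passed 1.2, with 347 and 221 CPM in radial glia. In iridophores *eif2s3* went the other way, at 200.2 and 255 CPM.

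The 3 eIF2 kinase genes found by symbol did not move together. No feature was named *eif2ak4*, so the kinase of that symbol, GCN2, was not followed. *eif2ak1*, encoding the heme-regulated kinase that also relays mitochondrial stress in mammals, had the largest log2 ratio of the 72 genes, 0.85 (0.76 to 0.94), at 18.4 CPM in the mutant library and 10.2 CPM in the wild-type library. *eif2ak3*, encoding the endoplasmic reticulum stress kinase PERK, stood at 23.0 and 23.1 CPM (-0.00, with an interval of -0.07 to 0.07). *eif2ak2*, encoding the kinase that responds to double-stranded RNA, was low at 2.75 and 3.01 CPM, and its interval (-0.33 to 0.07) covered no difference. By cell type, *eif2ak1* stood at 45.0 and 14.0 CPM in muscle, at 34.5 and 12.2 CPM in radial glia and at 23.4 and 11.7 CPM in chondrocytes. Muscle and radial glia, with gaps of 3.22-fold and 2.84-fold, were also the gates where eIF2B differed most. In photoreceptors *eif2ak1* stood at 8.48 and 11.2 CPM with an interval that covered no difference.

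Among the factors that scan and join subunits, *eif5b* stood apart. It encodes the GTPase that joins the large subunit, and stood at 210.4 CPM in the mutant library and 149 CPM in the wild-type library (log2 ratio 0.50, 0.47 to 0.52). In chondrocytes it stood at 234 and 121 CPM, 1.93-fold higher, the largest ratio there among *eif* and *eef* genes averaging 50 CPM or more. Its ratio was above 1 in 12 of 13 gates, but not in each beyond counting error. The log2 interval covered no difference in basal epidermis (-0.09 to 0.38) and in macrophages and microglia (-0.03 to 0.46), for instance. Xanthophores, the remaining gate, stood at 150.5 and 154 CPM with an interval of -0.38 to 0.31. *eif1axa*, a copy of the scanning factor eIF1A, stood at 52.0 and 43.2 CPM (0.27). *eif5*, which triggers GTP hydrolysis on eIF2 at the start codon, was lower, at 175 and 200.1 CPM (-0.19). In neurons *eif5* stood at 167 and 200.4 CPM. In muscle it stood at 199.8 and 182 CPM, with an interval (-0.04 to 0.31) that covered no difference, so the lower level was not seen in every gate. *eif6*, which keeps the large subunit from joining too early, stood at 85.7 and 64.4 CPM (0.41) over all cells and at 145 and 87.4 CPM in chondrocytes.

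eIF3, the largest initiation complex and the scaffold on the small subunit, showed no common direction. Of its 17 genes, 16 were measured at 10 CPM or more, and 0 of these had a ratio above 1.2 or below 0.8, with a median log2 ratio of 0.00. The lowest were *eif3m* at 227 CPM in the mutant library and 261 CPM in the wild-type library (-0.20), *eif3i* at 118 and 132 CPM (-0.17) and *eif3f* at 409.7 and 460.0 CPM (-0.17). The highest were the copies of the loosely bound j subunit. *eif3ja* stood at 115 and 97.2 CPM (0.24), and *eif3jb* at 85.2 and 74.5 CPM (0.19). By gate the complex split, with 9 of 15 measured genes above 1.2 and 0 below 0.8 in muscle, beside 41.8% and 14.7% of all genes there. In bipolar cells 0 of 16 were above 1.2 and 9 were below 0.8, beside 22.3% and 13.1% of all genes, and the median was -0.38. *eif3m* stood at 134 and 188 CPM in bipolar cells and at 310.2 and 267 CPM in muscle.

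The eIF4 factors, which bind the mRNA cap and unwind the leader, were near even, with 1 of 18 measured genes above 1.2 and a median log2 ratio of 0.02. That gene was the cap-binding copy *eif4eb*, at 42.0 CPM in the mutant library and 34.8 CPM in the wild-type library (0.27). In chondrocytes, where *eif4eb* was highest in both libraries, it stood at 126 and 84.4 CPM. The main cap-binding copy by UMIs was *eif4e1c*, at 154 and 135 CPM over all cells (0.19) and at 154 and 101 CPM in chondrocytes. *eif4ea*, a further copy, stood at 28.1 and 24.4 CPM (0.20). *eif4e2*, encoding a cap-binding protein that represses translation, was lower at 26.8 and 29.7 CPM (-0.15), and in muscle its level was 0.565 times the 60.2 CPM of the wild-type library. In chondrocytes, at 23.7 and 34.4 CPM, it was the 1 measured *eif* or *eef* gene below 0.8.

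The 4E-binding proteins hold the cap-binding protein away from initiation until mTOR phosphorylates them. Their 4 genes were grouped with that of a carrier of the cap-binding protein. Of these 5 genes 2 passed 1.2, beside 13.9% of all genes. *eif4ebp1* stood at 167 CPM in the mutant library and 125 CPM in the wild-type library (0.42, 0.39 to 0.45), and *eif4ebp3l* at 43.9 and 35.1 CPM (0.32). *eif4ebp2* stood at 103 and 87.7 CPM (0.23) and *eif4ebp3* at 18.6 and 15.5 CPM (0.26). The set of inhibitors in use differed strongly between cell types. *eif4ebp1* made up 61.6% of the UMIs of the 4 *eif4ebp* genes in neurons of either library. Its level was highest in macrophages and microglia, at 502 and 353 CPM. *eif4ebp2* led in vascular endothelium, with 63.3% and 59.1%. *eif4ebp3l* was highest in muscle, at 215 and 171 CPM, and low in neurons, at 7.27 and 8.17 CPM. The share of *eif4ebp1* was greater in the mutant library in muscle (45.6% and 31.0%), radial glia (52.8% and 41.5%), cranial mesenchyme (41.0% and 30.5%), macrophages and microglia (65.7% and 54.4%) and iridophores (35.8% and 23.2%), among others. It was smaller in vascular endothelium (19.8% and 23.3%), photoreceptors (38.2% and 42.1%), basal epidermis (32.7% and 35.0%) and bipolar cells (47.5% and 49.2%). These smaller shares rest on 49 and 41 UMIs of *eif4ebp1* in endothelium and 125 and 164 in photoreceptors. They rest on 300 and 276 UMIs in basal epidermis and 210 and 125 in bipolar cells. No interval was taken for the shares, so whether they differed beyond counting error was not tested.

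The elongation factors were lower in the mutant library through their most abundant genes. *eef1a1l1*, which supplied 98.6% and 99.1% of all eEF1A UMIs and delivers aminoacyl-tRNAs to the ribosome, stood at 4172 CPM in the mutant library and 4854 CPM in the wild-type library (-0.22). *eef1g*, a scaffold of the eEF1B exchange complex, stood at 1898 and 2229 CPM (-0.23), the lowest ratio of the 72 genes. *eef1b2*, its catalytic subunit, stood at 901 and 962 CPM (-0.09), *eef1db* at 187 and 201 CPM (-0.11), and *eef2b*, the main translocation factor, at 897 and 1003 CPM (-0.16). Each of these intervals lay below no difference, but every one of the ratios stayed above 0.8. *eef2a.1*, a minor eEF2 copy, stood at 12.1 and 13.6 CPM (-0.16). The elongation kinase *eef2k*, which inhibits eEF2, stood at 33.7 and 30.4 CPM (0.15).

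The elongation factor gap was widest in bipolar cells, iridophores and neurons. Summed *eef* CPM were 3337 in the mutant and 4898 in the wild-type library in bipolar cells, 8931 and 12462 in iridophores, and 5997 and 7996 in neurons. In basal epidermis they were 10937 and 10984, with an interval covering no difference. Radial glia were the exception with 9611 and 9157 CPM. Without cells with G2/M transcripts the radial glia gap was wider (8795 and 6762 CPM), and the log2 ratio of the *eef* sum turned to 0.07 in basal epidermis and 0.01 in muscle. The *eef* sum was below that of the wild-type library beyond counting error in 11 of 13 gates and above it in 1. Ribosomal protein genes were examined after these values were seen, and their sum was lower in the mutant library beyond counting error in 13 of 13 gates. It was 107754 and 128135 CPM over all cells and 41304 and 63880 CPM in bipolar cells. In radial glia it was 122108 and 124675 CPM, unlike the *eef* sum, which was higher there in the mutant library. The *eif* sum was higher beyond counting error in 6 gates and lower in 2, the neurons (7726 and 8049 CPM) and the bipolar cells (5787 and 6173 CPM).

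**Figure D3:**
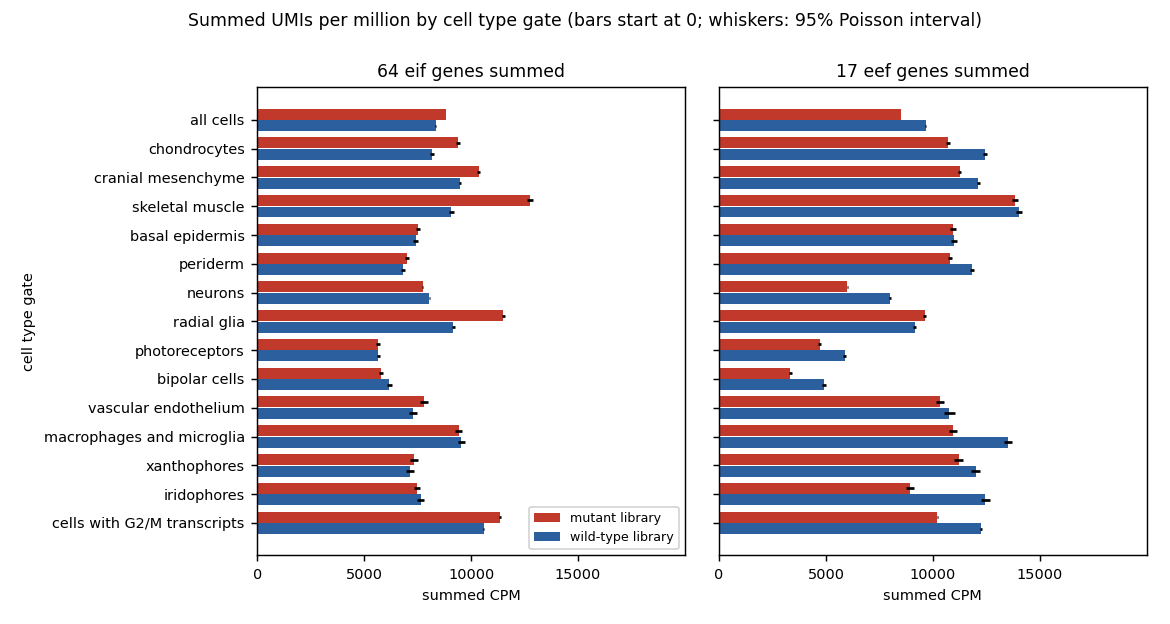
Summed CPM of the 64 *eif* genes (left) and the 17 *eef* genes (right) over all cells and in 14 gates of the mutant (red) and wild-type (blue) library, with 95% Poisson intervals. Skeletal muscle shows the widest gap of the *eif* sum, 12745 against 9077 CPM, and the *eef* sum is shorter in the mutant library in most gates, for instance 3337 against 4898 CPM in bipolar cells.

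A pair of minor elongation factor genes went against this trend. *eef1a1a* stood at 52.9 CPM in the mutant library and 37.0 CPM in the wild-type library over all cells (0.52), and *eef2l2*, an eEF2-like gene, at 24.5 and 15.7 CPM (0.64). Both were uneven over cell types. *eef1a1a* was highest in photoreceptors, at 185 and 157 CPM, followed by bipolar cells at 113 and 93.5 CPM and neurons at 84.0 and 61.5 CPM. In the remaining gates that exclude each other it lay below 10 CPM in the wild-type library. In radial glia *eef1a1a* stood at 61.9 CPM in the mutant library against 7.27 CPM in the wild-type library, 8.52-fold higher, and in muscle at 21.7 against 1.55 CPM. Thinned to 1000 UMIs, 4.48% of radial glia in the mutant library and 1.06% in the wild-type library held an *eef1a1a* UMI (17.1% and 2.93% unthinned, at median depths of 4583 and 3329 UMIs), while in chondrocytes, where the gene lay at 7.02 and 5.08 CPM, the thinned shares were 0.462% and 0.710% (median depths 4147 and 3233 UMIs). The 10 photoreceptor markers summed to 103 CPM in the radial glia gate of the mutant library and 157 CPM in that of the wild-type library, and the 8 neuron markers to 407 and 574 CPM, with 1 of 10 and 0 of 8 higher in the mutant library. *eef2l2* stood at 21.5 and 5.39 CPM in radial glia and at 141 and 58.7 CPM in muscle. In iridophores, its highest gate of the wild-type library, *eef2l2* was lower instead, at 83.3 and 147 CPM.

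Several other genes varied more between cell types than between the libraries. *eef1da*, a subunit of the eEF1B complex, was highest in periderm, at 595 CPM in the mutant library and 657 CPM in the wild-type library, and lowest in neurons, at 32.5 and 51.5 CPM, where it also differed between the libraries (-0.67). Its copy *eef1db* stood at 177 and 197 CPM in neurons, so that *eef1db* made up 84.5% and 79.2% of the pair's UMIs in neurons but 25.2% and 22.8% in periderm. *eif3hb*, a copy of an eIF3 subunit, was highest in bipolar cells, at 54.4 and 59.4 CPM, and near absent from periderm in the wild-type library, at 1.87 CPM. *eif4g3a*, an eIF4G scaffold copy, was highest in neurons, at 106 and 105 CPM, and stood at 5.65 CPM in macrophages and microglia of the wild-type library. Of the 72 genes, 43 were highest in the same gate in both libraries.

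**Figure D4:**
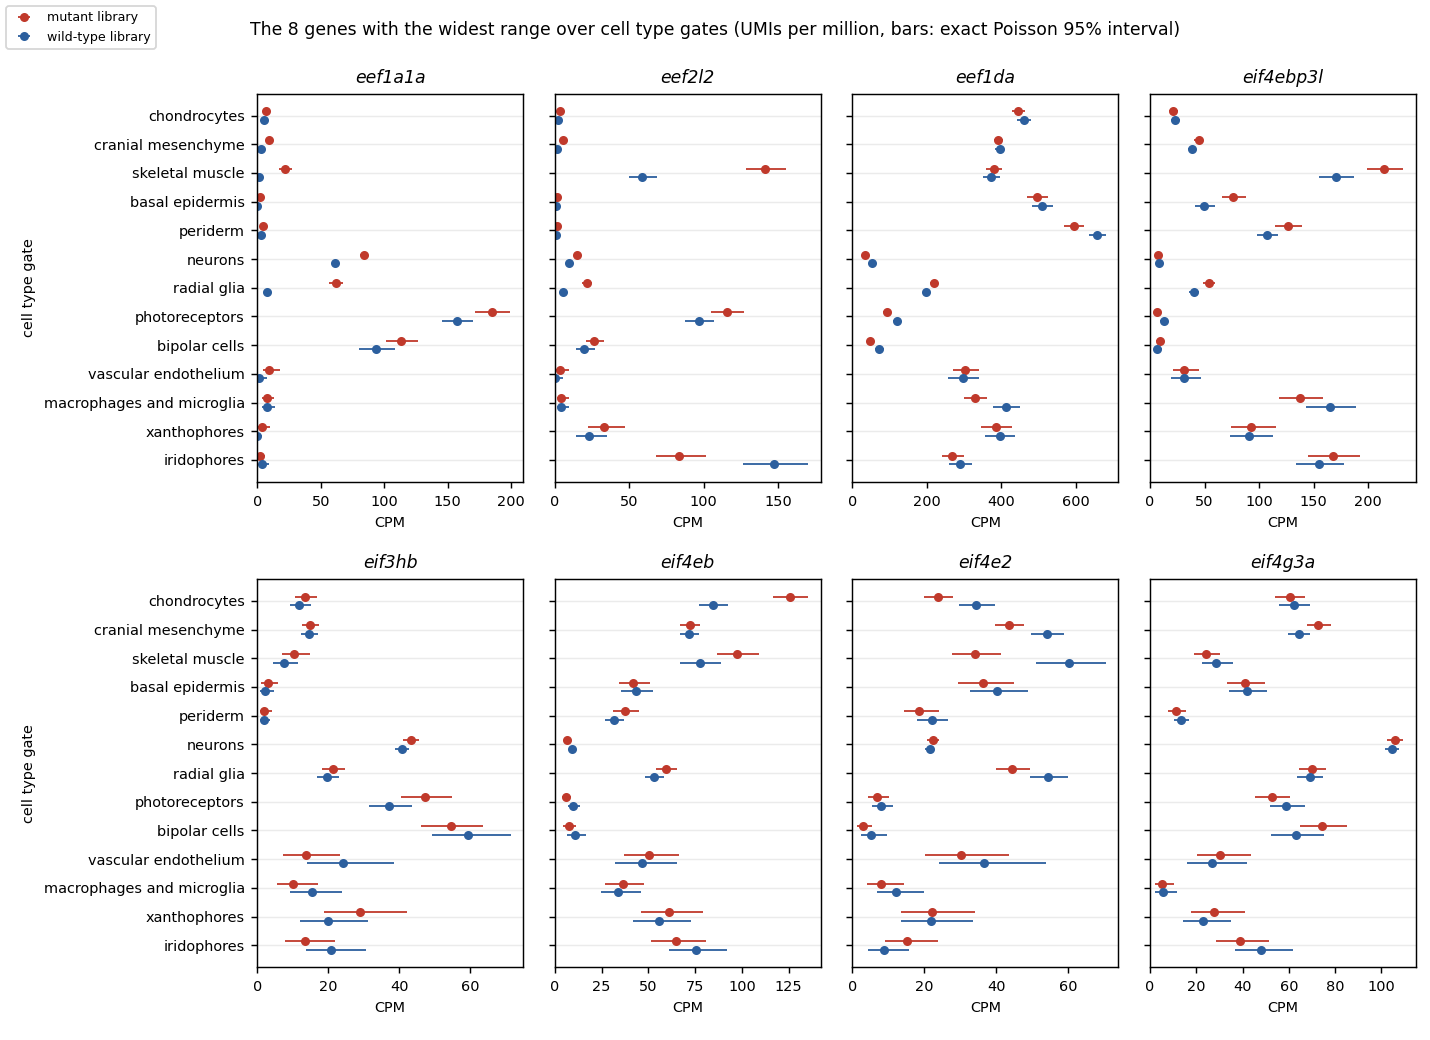
CPM (x axis, from 0) of the 8 genes with the widest range over 13 gates (y axis) in the mutant (red) and wild-type (blue) library, with exact Poisson 95% intervals. *eef1a1a* lies under 10 CPM outside neurons and the retinal gates of the wild-type library, and stands at 61.9 CPM in radial glia of the mutant library. *eef1da* runs from 32.5 CPM in neurons to 595 CPM in periderm of the mutant library.

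The study asked how loss of *polr3a* affects craniofacial cartilage, and the chondrocyte gate held 1131 cells of the mutant and 1344 of the wild-type library. The cartilage marker *matn1* was detected in 45.3% and 42.6% of them, so many of these cells carried other markers of the list. There 25 of 71 measured *eif* and *eef* genes were above 1.2 (35.2%), beside 21.6% of all genes, and 1 was below 0.8, beside 13.2%. Their median log2 ratio was 0.15 and that of all genes was 0.04. With every cell thinned to 1000 UMIs, the count above 1.2 no longer stood out, at 20 of 70 beside 28.1% of all genes, while the medians were 0.13 and 0.04. Among genes averaging 50 CPM or more, the 5 largest ratios were those of *eif5b*, *eif6*, *eif2s2*, *eif4e1c* and *eif4ebp1*, the last at 85.7 CPM in the mutant library and 57.2 CPM in the wild-type library. The 5 smallest were those of *eef1g*, *eef1a1l1*, *eef1db*, *eif3i* and *eif5*. *eef1g* stood at 2405 and 2896 CPM, *eef1a1l1* at 5258 and 6315 CPM, and *eif3i* at 98.8 and 113 CPM. In the 384 and 395 gate cells with at least 5 *matn1* UMIs, a choice made after seeing the data, 37 of 68 genes were above 1.2, beside 34.6% of all genes, and 4 were below 0.8, beside 15.6%.

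Other gates differed in how far the genes followed the rest of the transcriptome. In radial glia 29 of 73 measured genes were above 1.2, beside 19.5% of all genes, and 2 were below 0.8, beside 13%. In muscle 43 of 71 (60.6%) were above 1.2, beside 41.8% of all genes, and 3 were below 0.8, beside 14.7%. The median log2 ratios there were 0.36 and 0.18. A wide spread was thus shared by the whole transcriptome in muscle, but the share above 1.2 was larger among these genes. Among cells with G2/M transcripts 20 of 73 were above 1.2, beside 24.7%, and 1 below 0.8, beside 4.77%. Neurons, bipolar cells and iridophores had smaller shares above 1.2 than all genes and larger shares below 0.8. Periderm (8.8% beside 27.1%), basal epidermis, photoreceptors, macrophages and microglia, and xanthophores also had smaller shares above 1.2. Their shares below 0.8 were smaller than those of all genes too, for instance 8.5% beside 24.6% in xanthophores. In neurons 7 of 67 genes were above 1.2, beside 15.3% of all genes, and 9 were below 0.8, beside 5.12%. In bipolar cells 5 of 65 were above 1.2, beside 22.3%, and 16 below 0.8, beside 13.1%. Iridophores had 16 of 69 above 1.2, beside 33.4%, and 14 below 0.8, beside 15.8%. Median depths per cell differed between libraries in these gates (4583 and 3329 UMIs in radial glia, 2159 and 1852.5 UMIs in bipolar cells), and the part of depth in the counts by gate was not tested. The shares over all genes were not matched to the *eif* and *eef* genes by level. Counting error alone carries more ratios past 1.2 or 0.8 at low counts, and its part in these shares was not tested.

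**Figure D5:**
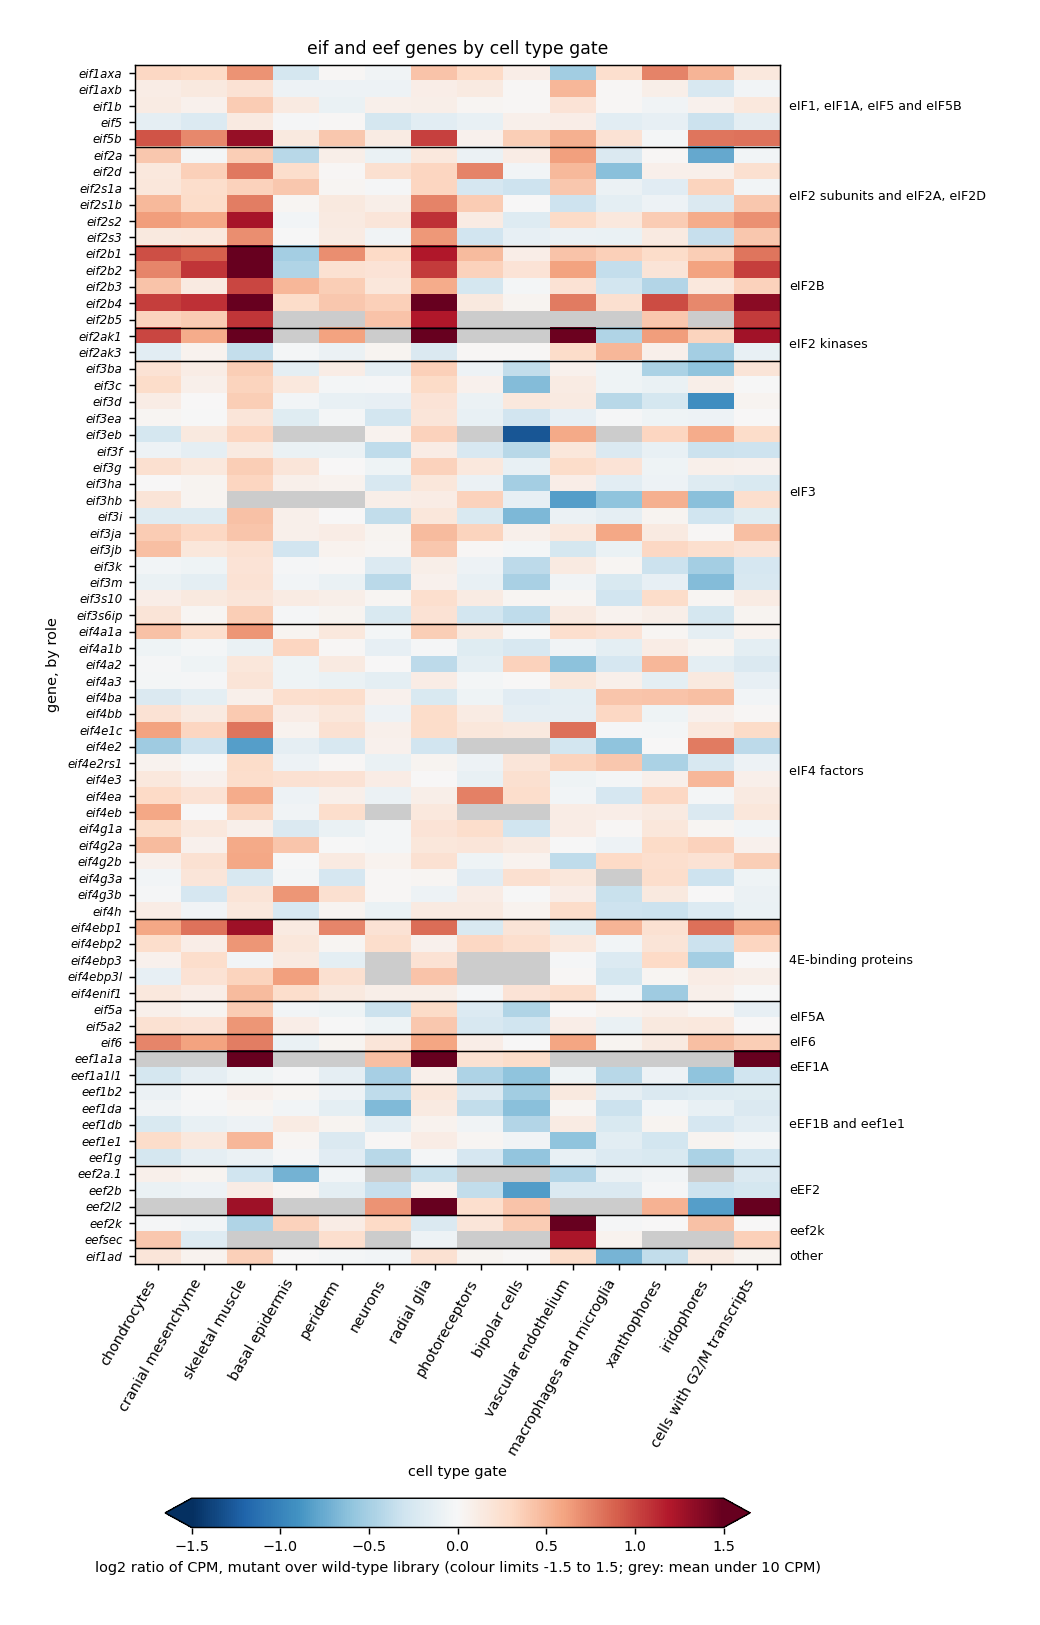
Log2 ratio of CPM (colour, mutant over wild-type library, limits -1.5 to 1.5) of each gene reaching a mean of 10 CPM in a gate (rows, by role) in 14 gates (columns). Grey marks values under that level. Red concentrates on eIF2B, *eif2s2*, *eif2ak1*, *eif5b* and *eif4ebp1* in muscle, radial glia, chondrocytes, mesenchyme and cells with G2/M transcripts. Blue concentrates on eIF3 and elongation factors in bipolar cells and iridophores.

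eIF5A, which carries the modified residue hypusine and helps ribosomes past difficult peptide bonds, is encoded by *eif5a* and *eif5a2*. *eif5a* stood at 496 CPM in the mutant library and 499 CPM in the wild-type library over all cells (-0.01), and *eif5a2* at 479 and 424 CPM (0.18). In muscle *eif5a2* stood at 777 and 491 CPM, while in bipolar cells *eif5a* stood at 184 and 252 CPM. *eif1ad*, a nuclear relative of eIF1A, stood at 52.9 and 52.6 CPM (0.01).

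Genes that work beside these factors were read from 3 lists. Of 26 cytosolic partners of initiation and its control, 21 were measured at 10 CPM or more, of which 6 were above 1.2 and 0 below 0.8, with a median log2 ratio of 0.11. The largest was *mknk2b*, a kinase of the cap-binding protein, at 107 CPM in the mutant library and 61.6 CPM in the wild-type library (0.79). *ppp1r15a*, which directs dephosphorylation of eIF2-alpha, stood at 123 and 91.1 CPM (0.43), and its relative *ppp1r15b* at 13.2 and 9.96 CPM (0.41). *dhps*, which starts the hypusine modification of eIF5A, stood at 15.4 and 12.3 CPM (0.33). Of 7 termination and recycling genes, 6 were measured, with 1 above 1.2, the recycling factor *abce1* at 81.3 and 65.4 CPM (0.32). Of 9 mitochondrial translation factors, 3 were measured, with 1 above 1.2, the elongation factor *tsfm* at 14.3 and 10.9 CPM (0.39). These shares stand beside 13.9% of all genes above 1.2.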

How the data were processed

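Single-cell libraries of 3 dpf heads were made with a 10x Genomics 3′ kit, 1 per genotype. The authors counted UMIs per gene with Cell Ranger (version 8.0.0 in the file header, another version in the study's methods) on GRCz11, and the deposited values are raw counts per barcode. Cells with 500 to 20000 UMIs, 500 to 5000 genes, a novelty score from 0.8 upwards and no more than 20% mitochondrial UMIs were kept, following the study. The study's own doublet removal could not be rebuilt, so doublets were left in and the 10% of cells with the highest Scrublet score (scanpy 1.11.5) were dropped as an alternative only. The kept cells held 130701622 UMIs in the mutant and 159367137 UMIs in the wild-type library.

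Counts were summed over the cells of each library and gate with Python 3.11.15, numpy 2.4.6, scipy 1.17.1 and pandas 2.3.3, and drawn with matplotlib 3.10.9. Levels carry exact Poisson and ratios exact conditional binomial 95% intervals, which cover counting error only, and shares of cells carry exact Clopper-Pearson intervals. The ratio intervals were tested on simulated data, which cannot show the spread between replicate libraries. Ratio limits of 1.2 and 0.8 are those the study used for fold changes. Its test over single cells was not repeated, since cells are not replicates, and no p-value is given. For shares of cells, each cell was thinned to 1000 UMIs, leaving out 1740 and 2720 shallower cells of the mutant and the wild-type library.

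The genes named were the 8 largest and 8 smallest ratios over all cells, the 3 farthest from no difference in each role, the 5 largest and 5 smallest in chondrocytes among genes averaging 50 CPM or more, the 8 with the widest range over gates, and every *eif2ak*, *eif2s*, *eif2b* and *eif4ebp* gene. *eif2a*, the genes under 10 CPM and those named only in the closing section were added after their values were seen. Genes, lists and gates were chosen with earlier results of these data known. The symbols *cnmd*, *evplb*, *strc*, *mfap4.1* and *hemgn* of the marker lists and *paip2a*, *ddx3xa* and *ddx3xb* of the partner list matched no feature name and were not used. Promoter motifs and coordinates were not analysed here.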

Additional observations from a re-analysis of the deposited data

Results flagged for a closer look

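These genes had log2 ratios (mutant over wild-type library) in opposite directions in 2 cell types, each beyond its counting interval and past the limits of 1.2 and 0.8. With 1 library per condition the difference between cell types was not tested in any of them, and the pairs were picked after their values were seen.

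Each of the 13 genes is listed here with 1 pair of gates. For 5 of them the pair was skeletal muscle, with the higher ratio, and bipolar cells, with the lower one. Among them *eif3c* had 0.34 in muscle and -0.65 in bipolar cells, *eif3i* 0.43 and -0.67, *eif3ha* 0.32 and -0.51, *eif3s6ip* 0.37 and -0.38, and *eif5a* 0.38 and -0.45. A further 3 paired muscle with iridophores, with *eif3d* at 0.36 and -0.93, *eif3ba* at 0.37 and -0.60, and *eif2s3* at 0.70 and -0.35. *eif3ba* was also lower in bipolar cells (-0.37, interval -0.63 to -0.12). *eif1ad* had 0.36 in muscle and -0.70 in macrophages and microglia. The median of all genes in muscle was 0.18 and the muscle markers took less of the total in the mutant library.

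*eif3eb* had 0.35 in radial glia and -1.28 in bipolar cells. *eef2l2* had 1.99 in radial glia and -0.82 in iridophores. *eif2a* had 0.40 in chondrocytes and -0.77 in iridophores. *eef2k*, the kinase that inhibits eEF2, had 1.998 in vascular endothelium and -0.45 in muscle, the only pair here with muscle on the lower side. The endothelial value rests on 27 UMIs in the mutant and 5 in the wild-type library (interval 0.60 to 3.73). Counts were also low for *eif3eb* in bipolar cells (17 and 28 UMIs) and *eif2a* in iridophores (24 and 43 UMIs).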

How the results depend on the processing

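No paired analysis was possible because each condition had 1 library, and no replicate could be left out. Alternatives for single genes were run over all cells for 17 genes, and none of these turned direction. Of 71 summary values 60, and of 153 values of single genes 74, stayed within counting error or 1.5 times the count, and 79 of the latter moved by more than their narrow counting error. The counts depended most on scale. Dividing by the median ratio of all genes turned the median log2 ratio over all cells to -0.012. It left 11 genes above 1.2, beside 9.1% of all genes. A total without *eif*, *eef*, ribosomal protein and mitochondrial genes gave a median of 0.018. Cell type shares also differed between the mutant and the wild-type library, for instance 27.7% and 32.8% of cells in the neuron gate and 3.55% and 2.01% in the bipolar gate. With wild-type gate shares in both libraries, 13 genes were above 1.2 over all cells, beside 10.6% of all genes. The median was then 0.049, beside 0.078 for all genes. Adding 1 to the mean per 10000 UMIs, which shrinks low genes, left 2 of 72 genes above 1.2 over all cells, beside 0.85% of all genes. In chondrocytes it left 6 of 71 above 1.2, beside 1.8% of all genes, and 0 below 0.8, beside 0.60%. On that scale all 5 eIF2B genes stayed positive but fell under the 1.2 limit, with *eif2b4* at 0.22, *eif2b1* at 0.14, *eif2b2* at 0.12, *eif2b3* at 0.063 and *eif2b5* at 0.054. *eif2b3* also fell under it with each cell weighing the same (0.23), after division by the median ratio (0.22) and with the reduced total (0.25). The chondrocyte count above 1.2 was 20 of 70 genes with thinned cells, beside 28.1% of all genes, 20 of 70 with each cell weighing the same, beside 22.7%, and 17 of 71 with cells of several gates kept, beside 15.8%. The chondrocyte count below 0.8 was 5 with cells thinned to 1000 UMIs, beside 19.3% of all genes, and 2 with each cell weighing the same, beside 13.5%. It was 3 at a mean of 1 CPM or more, beside 22.8%, and 4 with 2 markers per cell, beside 16.6%. In cells with at least 5 *matn1* UMIs it was 4, beside 15.6%. *eef1a1a* ranged from 0.12 to 0.58 and *eef1a1l1* from -0.28 to -0.19 over all cells. The choices of *matn1* cells and of cells without G2/M transcripts were made after seeing the data. Leaving out cells with G2/M transcripts lowered the gates with an *eef* sum ratio below 1 from 12 to 10. These counts take no account of counting error, unlike the 11 gates given above.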
